A study of Homo sapiens with 6 samples.

Results

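MCM2, MCM3, MCM4, MCM5, MCM6, MCM7 and PCNA are the genes of the replicative helicase ring and of the sliding clamp, and they were examined as RNAs bound by IGF2BP3. They are 7 of the 20046 protein-coding genes of GENCODE release 44. A cluster, which is a stretch of overlapping reads with T-to-C conversions, was assigned to a gene when it overlapped an exon of that gene on the same strand by 1 nt or more, and 86 of the 244645 clusters of the series lay on these 7 genes. IGF2BP3 is an RNA-binding protein that acts on the stability and translation of its target mRNAs.

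The cells were HCT116, a human colorectal carcinoma line carrying Tet-OsTIR1, a conditionally expressed plant F-box protein. All 6 libraries came from cells given 100 µM 4-thiouridine for 15 h and crosslinked at 365 nm, and each condition had 1 library and no replicate. RNase concentrations are given below as in-lysate/on-beads in U/µL. IGF2BP3 was precipitated with a polyclonal antibody after RNase I at 0.05/0.05, 0.1/0.025 or 0.05/0.025 and after RNase T1 at 1/1 or 0.25/0.25, and 1 IgG precipitation served as control, with RNase I at 0.1/0.025. RNase I cuts RNA with little preference for the base, whereas RNase T1 cuts after guanosine. The antibody partly recognizes the paralog IGF2BP2, as tests of it in the study showed, and RNA bound by that paralog cannot be told apart in these values. In 2 libraries, RNase I 0.05/0.05 and RNase T1 1/1, the RNA was electroeluted from the gel, and in the other IGF2BP3 libraries it was taken from crushed gel. Within an enzyme the difference between these 2 procedures therefore goes with the RNase concentration, and they cannot be told apart.

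The proteins MCM2 to MCM7 form a ring-shaped helicase that is loaded on replication origins in G1 phase and unwinds DNA once the origin fires in S phase. PCNA encircles DNA behind the helicase and holds the replicative polymerases and many repair enzymes on their template. The genes are transcribed under E2F control as cells enter the cycle, and their products are widely used as markers of proliferating cells, also in the crypts and tumors of the colon.

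Depth differed between libraries, with 2362467 cluster reads for RNase I 0.05/0.05, 803490 for 0.1/0.025 and 670712 for 0.05/0.025. There were 1157194 for RNase T1 1/1, 182448 for 0.25/0.25 and 324 for IgG. These sums cover only reads within called clusters and are not library sizes. Within each enzyme the electroeluted library had more cluster reads than those from crushed gel, so that depth goes with gel extraction as well. Of 6 markers of colorectal epithelium, among them EPCAM and KRT8, 6 had clusters, and of 6 markers of other cells, among them PTPRC and ALB, 0 had any. Read counts are given as CPM, which is reads in every 1000000 cluster reads of the same library, and intervals are 95% intervals that cover counting error only.

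The stretches of the member RNAs that lay under clusters of the most libraries are shown first, because they are where the libraries overlapped in sequence as well as in gene. They are written 5′ to 3′ on the RNA strand in DNA letters, from hg38, with every CAT that is followed by T, A or C, and every CAGT, in capitals. For MCM2, 30 nt of a 33-nt stretch are given, at chr3:127622343-127622372 (plus strand), under clusters of 4 libraries. The MCM3 stretch is at chr6:52264062-52264086 (minus strand), the MCM6 stretches are at chr2:135840458-135840476 and chr2:135840651-135840679 (minus strand), and the PCNA stretch is at chr20:5115172-5115198 (minus strand), each under clusters of all 5 IGF2BP3 libraries. The MCM5 stretch at chr22:35424317-35424326 (plus strand) lay under clusters of 3 libraries. All of these are in 3′UTRs. The MCM7 stretch at chr7:100095927-100095951 (minus strand), also under clusters of 3 libraries, is in the coding sequence.
MCM2: cCATTgctccctgtctgtttccccactctc
MCM3: atcacaaaacaaacccaatatccag
MCM5: cCATTgacaa
MCM6, nearer the mRNA end: ttttattCATCaaaataaa
MCM6, nearer the stop codon: gtcaCATTCATCacaggtttCATAccaac
MCM7: gCATTctcaccacactcaatgcccg
PCNA: accaaatttgtacctctaagtaCATAt

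These tetramers begin with CA, the dinucleotide found in many published binding motifs of the family. In the MCM6 stretch nearer the stop codon 3 of them lie within 29 nt, and the MCM3 stretch holds none. No MCM4 sequence is printed here.

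Each of the 7 genes had clusters in all 3 RNase I libraries. With RNase T1, MCM3, MCM4, MCM6 and PCNA had clusters at both concentrations, MCM2 only at 0.25/0.25, MCM7 only at 1/1, and MCM5 at neither. No cluster on a member was called in the IgG library, which held 25 clusters in all. Clusters in each of the 5 IGF2BP3 libraries were thus found for 4 of the 7 members, where 33.8% of the 9353 protein-coding genes with a cluster in any library had them.

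The member clusters contained 381 reads with RNase I 0.05/0.05, 259 with 0.1/0.025, 251 with 0.05/0.025, 94 with RNase T1 1/1 and 71 with 0.25/0.25. The summed CPM was 161 (145 to 178) with RNase I 0.05/0.05, 322 (284 to 364) with 0.1/0.025 and 374 (329 to 424) with 0.05/0.025. It was 81.2 (65.6 to 99.4) with RNase T1 1/1 and 389 (304 to 491) with 0.25/0.25. The electroeluted libraries were the lowest for both enzymes, and the intervals of the 3 libraries from crushed gel overlapped one another.

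**Figure D1:**
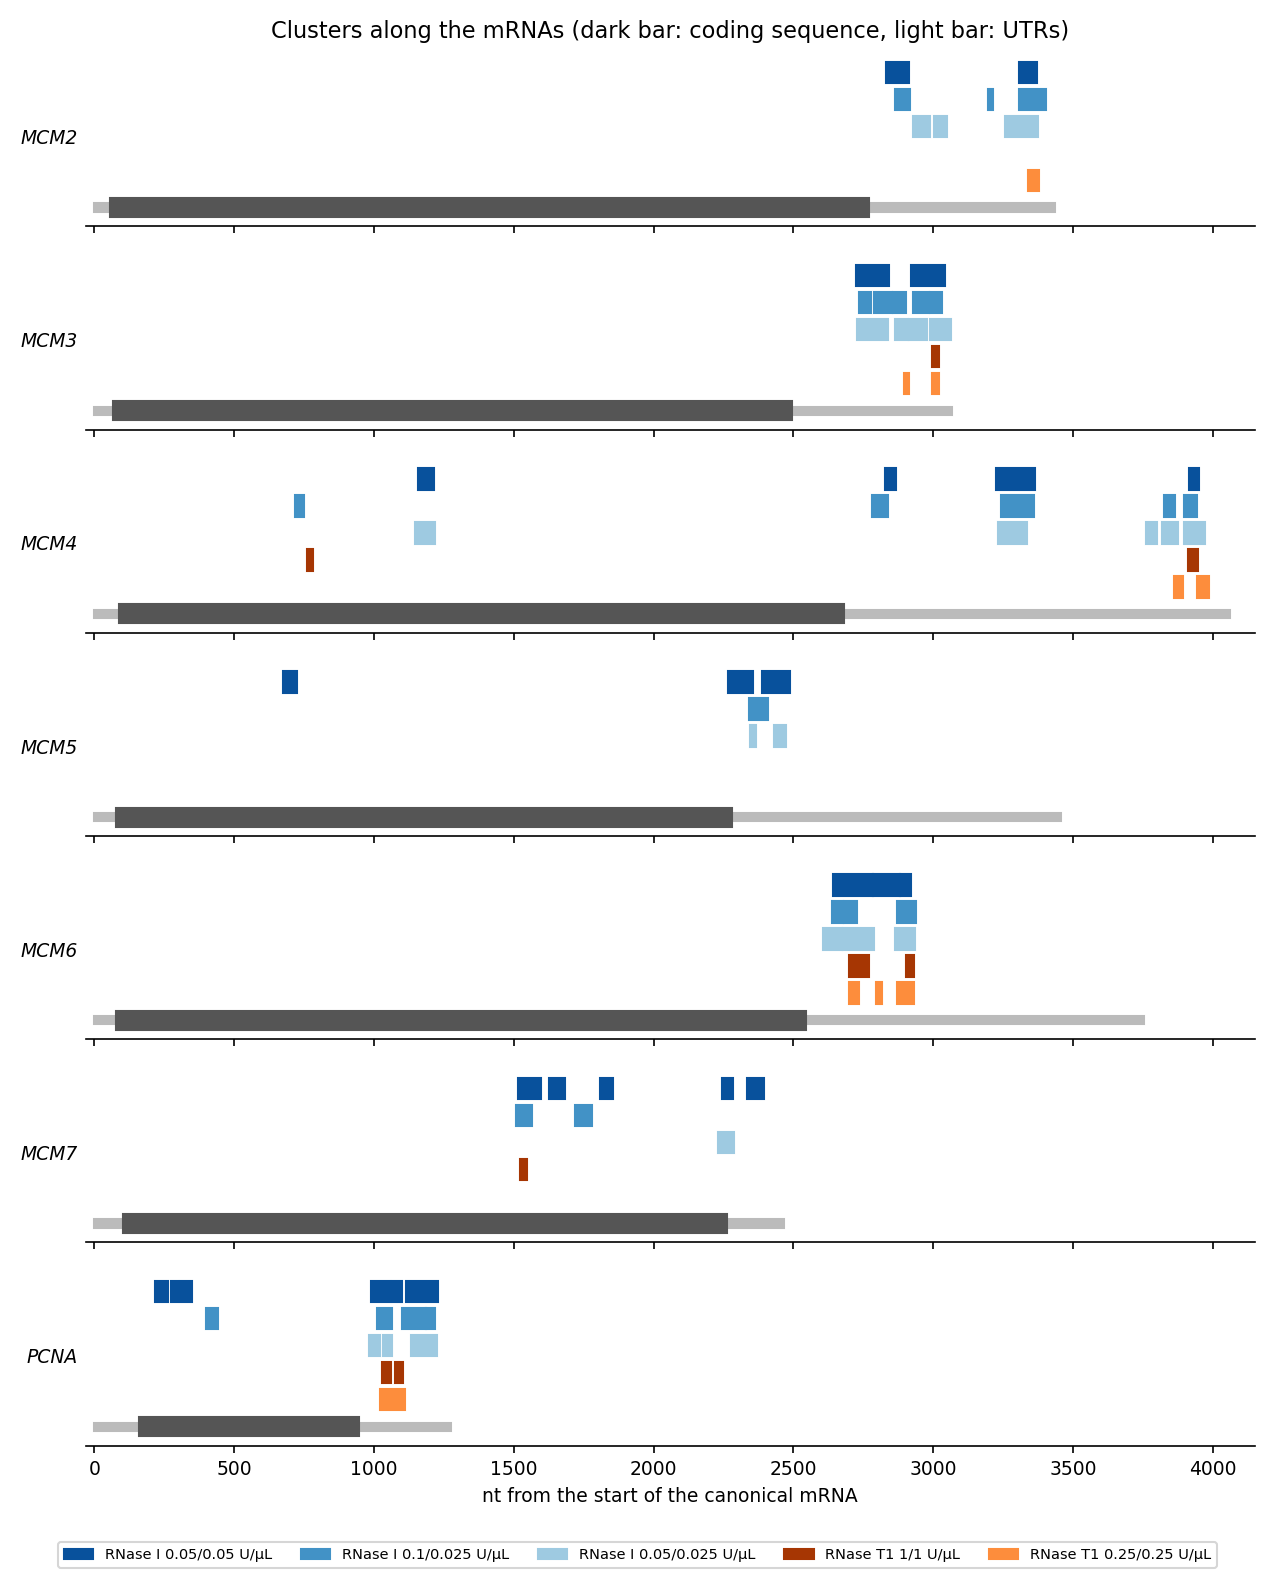
Clusters of the 7 members in each IGF2BP3 library, drawn along the canonical mRNA of each gene in nt from its start, with the coding sequence as a dark bar, the UTRs as light bars and 1 row of blocks per library. Most blocks lie in the 3′UTR, those of MCM6 all lie between 62 and 393 nt after the stop codon, and MCM7 has 6 of its 9 in the coding sequence.

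MCM6, which with MCM4 and MCM7 makes up a helicase core, had 83 reads with RNase I 0.05/0.05, 29 with 0.1/0.025, 42 with 0.05/0.025, 26 with RNase T1 1/1 and 25 with 0.25/0.25. In CPM these were 35.1, 36.1, 62.6, 22.5 and 137. The RNase T1 0.25/0.25 value was the highest of any member in any library. All 14 clusters of MCM6 merged into 1 site of its 3′UTR at chr2:135840442-135840773, which had clusters of all 5 libraries. The 3′UTR of MCM6 is 1209 nt long, the site lay 62 to 393 nt after the stop codon, and no cluster was called in the last 816 nt. A total of 48 nt of MCM6 lay under clusters of all 5 libraries, the most of the 7 members, in the pair of stretches printed above.

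MCM3, the subunit that first meets the loader at the origin, had 63 reads with RNase I 0.05/0.05, 63 with 0.1/0.025, 69 with 0.05/0.025, 11 with RNase T1 1/1 and 12 with 0.25/0.25. Its CPM were 26.7, 78.4, 103, 9.51 and 65.8 in the same order. The clusters formed 2 sites, both in the 3′UTR of 573 nt. The site nearer the mRNA end, chr6:52264019-52264226, had clusters of all 5 libraries and 158 of the 218 reads. The other, chr6:52264233-52264359, had 60 reads and clusters with RNase I only. In the RNase T1 libraries the larger cluster of MCM3 covered nearly the same bases, 52264062 to 52264087 at 1/1 and 52264062 to 52264086 at 0.25/0.25.

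MCM4, another subunit of the helicase core, had 55 reads with RNase I 0.05/0.05, 58 with 0.1/0.025, 57 with 0.05/0.025, 15 with RNase T1 1/1 and 13 with 0.25/0.25. Its CPM were 23.3, 72.2, 85.0, 13 and 71.3. The site with the most reads of MCM4, with clusters between 545 and 682 nt after the stop codon, had 35, 36 and 24 reads in the 3 RNase I libraries and no cluster with RNase T1. A second site, with clusters between 1216 and 1304 nt after the stop codon in a 3′UTR of 1382 nt, had clusters in all 5 libraries but only 46 reads. No single nucleotide of MCM4 lay under all 5, since the RNase T1 0.25/0.25 cluster there began at 1263 nt and the RNase I 0.1/0.025 cluster ended at 1262 nt. MCM3, MCM6 and PCNA, 3 of the 4 members with clusters in every library, had such nucleotides, where the share over all 3162 genes with clusters in every library was 79.1%.

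PCNA, the sliding clamp, had 81 reads with RNase I 0.05/0.05, 52 with 0.1/0.025, 31 with 0.05/0.025, 38 with RNase T1 1/1 and 16 with 0.25/0.25. Its CPM were 34.3, 64.7, 46.2, 32.8 and 87.7, which was the narrowest range, as highest over lowest, of the 4 members with clusters in every library. The site chr20:5115002-5115245 held 200 of the 218 reads and had clusters of all 5 libraries. Its 12 clusters lay between 38 and 281 nt after the stop codon, and together they covered 73.9% of the 3′UTR, which is 330 nt long. The RNase T1 clusters of PCNA lay between 74 and 165 nt after the stop codon. The largest RNase I 0.05/0.05 cluster, with 34 reads at 169 to 281 nt, had no RNase T1 cluster over it.

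MCM2, a histone-binding subunit, had 23 reads with RNase I 0.05/0.05, 33 with 0.1/0.025, 32 with 0.05/0.025 and 5 with RNase T1 0.25/0.25. In CPM these were 9.74, 41.1, 47.7 and 27.4. The site chr3:127622260-127622406 held 60 of the 93 reads and had clusters of all 4 of these libraries, and the other 4 sites of MCM2 had 4 to 14 reads each in 1 or 2 libraries. All of them lay in the 3′UTR, which is 663 nt long.

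MCM5, which faces MCM2 at the gate where the ring opens, had 27 reads with RNase I 0.05/0.05, 10 with 0.1/0.025 and 10 with 0.05/0.025, or 11.4, 12.4 and 14.9 CPM. Its 40 3′UTR reads lay within 205 nt of the stop codon, at chr22:35424239-35424460, and the remaining 971 nt of the 3′UTR had no cluster. One cluster of 7 reads with RNase I 0.05/0.05 lay in the coding sequence and ran past the end of an exon, the only cluster of the 86 that was not wholly within exons.

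MCM7, the third subunit of the helicase core, had 49 reads with RNase I 0.05/0.05, 14 with 0.1/0.025, 10 with 0.05/0.025 and 4 with RNase T1 1/1, or 20.7, 17.4, 14.9 and 3.46 CPM. Its clusters were spread over 6 sites, and no site had clusters of more than 3 libraries. The site chr7:100095876-100095964, with 13, 8 and 4 reads in RNase I 0.05/0.05, RNase I 0.1/0.025 and RNase T1 1/1, lay in the coding sequence at codons 469 to 498. Read counts this small leave wide intervals, and the RNase T1 1/1 value of MCM7 runs from 0.942 to 8.85 CPM.

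**Figure D2:**
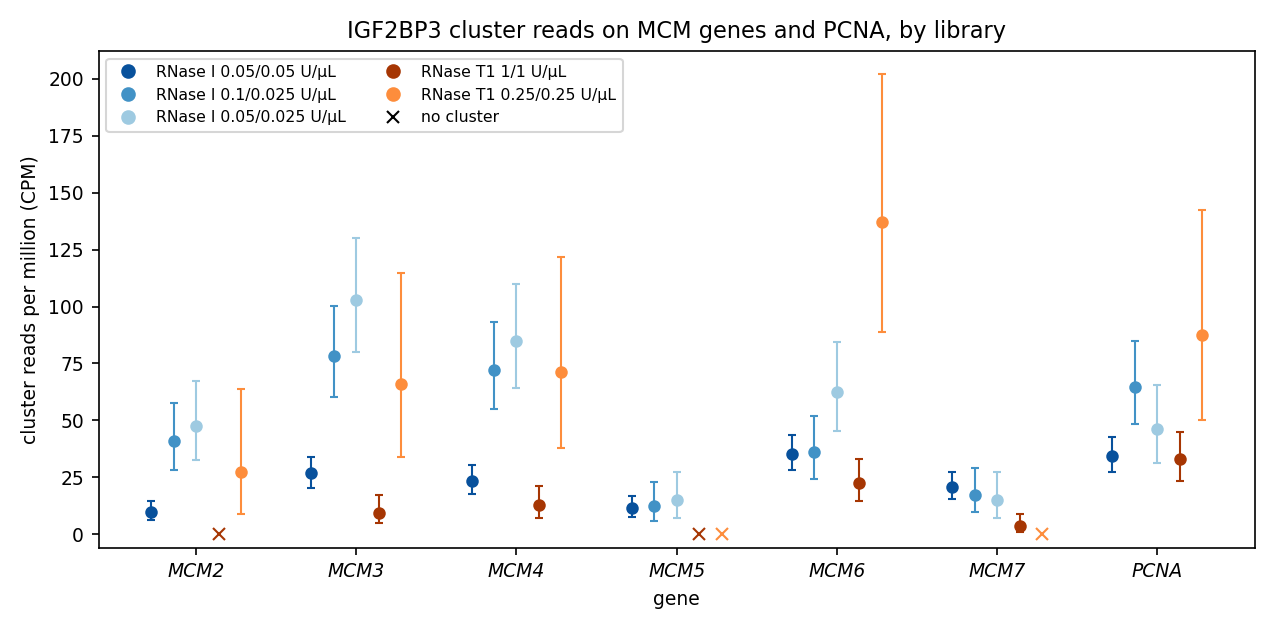
CPM of each member in each IGF2BP3 library, with exact Poisson 95% intervals on the reads and crosses where no cluster was called. The RNase T1 0.25/0.25 values of MCM6 (137) and PCNA (87.7) are their highest, whereas MCM5 and MCM7 stay at or below 20.7 in every library.

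Per kilobase of canonical mRNA, which allows levels of genes to be compared, the mean over the 5 IGF2BP3 libraries was 41.7 CPM for PCNA, 18.5 for MCM3, 15.6 for MCM6, 13 for MCM4, 7.33 for MCM2, 4.58 for MCM7 and 2.24 for MCM5. The order changes without the length, since the PCNA mRNA is the shortest at 1276 nt: in CPM, MCM6 had a mean of 58.7, MCM3 56.6, PCNA 53.2 and MCM4 52.9. The place of MCM6 rests on the RNase T1 0.25/0.25 library, with 25 reads. Without that library, an alternative chosen after seeing the data, the means were 54.4 CPM for MCM3, 48.4 for MCM4, 44.5 for PCNA and 39.1 for MCM6, and per kilobase 17.7 for MCM3, 11.9 for MCM4 and 10.4 for MCM6. The median per kilobase over the 7590 protein-coding genes with 20 or more reads in the 5 libraries was 9.71 CPM. PCNA stood at or above 80.1% of these genes and MCM5 at or above 19.4%, so that the members ran through most of the range of the bound genes. Without RNA levels of the input, more binding and more mRNA cannot be told apart.

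Of the 86 clusters, 71 lay in the 3′UTR of the canonical transcript, 15 in its coding sequence and 0 in its 5′UTR, with a cluster over both features counted as 3′UTR. In reads, 95 of 1056 were in coding clusters. The coding share was 15.2% (12 to 19.2, Wilson) with RNase I 0.05/0.05, 8.49% (5.68 to 12.5) with 0.1/0.025 and 2.39% (1.1 to 5.12) with 0.05/0.025. With RNase T1 it was 9.57% (5.12 to 17.2) at 1/1 and 0% at 0.25/0.25, where 0 of 71 reads give an upper bound of 5.13%. Over all protein-coding genes the share was 19.6, 17.7, 19.1, 12.1 and 12.2% in the same order, and the member share was below it in every library. The member interval reached the value of all genes in 1 library only, RNase T1 1/1. These shares pool reads, so that genes with many reads weigh most. Counted by gene over the 5 libraries together, the median coding share was 8.26% for the members and 4.34% for the 7590 genes with 20 or more reads. MCM2, MCM3 and MCM6, with 0%, stood at or above 35.7% of these genes, and MCM7 at or above 89.9%. Whether the members were below other genes therefore depends on whether reads or genes are counted.

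With the features of all transcripts, 4 clusters that are coding in the canonical MCM4 transcript counted as 3′UTR, because other MCM4 transcripts have a 3′UTR there. The member shares then became 13.9, 7.34, 0, 4.26 and 0%, against 13.4, 11.4, 12.3, 8.37 and 7.61% over all protein-coding genes. On this count the member share with RNase I 0.05/0.05 was no longer below that of all genes.

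The coding reads came from 4 genes. MCM7 had 51 of its 77 reads in coding clusters, 66.2% (55.1 to 75.8), and 14.1% of the genes with 20 or more reads had over 50% of theirs there. By library, MCM7 had 33 coding of 49 reads with RNase I 0.05/0.05, 14 of 14 with 0.1/0.025, 0 of 10 with 0.05/0.025 and 4 of 4 with RNase T1 1/1. The 10 reads of the RNase I 0.05/0.025 library were in 1 cluster over the stop codon, which counted as 3′UTR, as did 1 further cluster of MCM7 and 1 of MCM5. MCM4 had 19 coding reads, PCNA 18 and MCM5 7, and MCM2, MCM3 and MCM6 had 0.

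MCM7 has the shortest 3′UTR of the 7, 204 nt, beside a coding sequence of 2160 nt, and PCNA the next shortest, 330 nt beside 786 nt. The members differed in these lengths from the other bound genes, with median 3′UTRs of 663 nt against 1702 nt and median coding sequences of 2427 nt against 1362 nt. Per kilobase of the feature, the median over the members was 38.0 CPM in the 3′UTR and 0.269 in the coding sequence, where the genes with 20 or more reads had medians of 15.3 and 0.874. The coding median of the members is the value of MCM5, from 1 cluster of 7 reads. MCM4 (1.48), PCNA (2.98) and MCM7 stood above 0.874 in the coding sequence, and MCM2, MCM3 and MCM6 had 0 there. For MCM7 itself the values were 21.3 CPM per kilobase of 3′UTR and 3.23 per kilobase of coding sequence. Most of its 3′UTR value came from the clusters over the stop codon, of 14.9 and 2.54 CPM, which counted wholly as 3′UTR. The cluster of MCM7 that lay wholly in the 3′UTR had 4.23 CPM. Which feature of MCM7 was denser therefore depends on how the clusters over the stop codon are counted. PCNA had 154 CPM per kilobase of 3′UTR, the highest of the 7, and MCM5 6.09, the lowest.

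**Figure D3:**
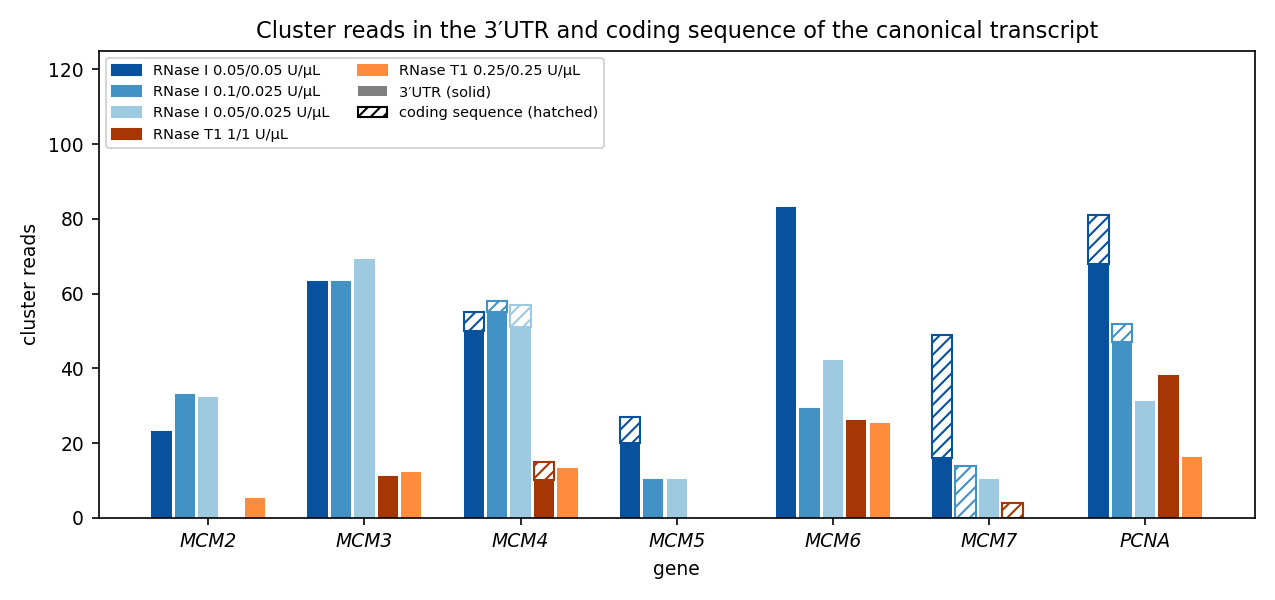
Cluster reads of each member in each IGF2BP3 library, with reads of 3′UTR clusters as solid bars and reads of coding clusters of the canonical transcript as hatched bars. Coding reads are the larger part in MCM7 alone, with 33 of 49 in RNase I 0.05/0.05.

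T-to-C conversion events per read, which mark crosslinked 4-thiouridine, were 0.654 (0.575 to 0.740, exact Poisson) on the members with RNase I 0.05/0.05, 0.633 (0.540 to 0.738) with 0.1/0.025 and 0.657 (0.561 to 0.766) with 0.05/0.025. With RNase T1 they were 0.574 (0.432 to 0.75) at 1/1 and 0.577 (0.414 to 0.783) at 0.25/0.25. Over all protein-coding genes the values were 0.638, 0.651, 0.608, 0.512 and 0.552, each within the interval of the members. By gene and library the values ran from 0.273 for MCM3 with RNase T1 1/1 to 0.913 for MCM2 with RNase I 0.05/0.05, and the highest member differed between libraries, with MCM7 first at 0.857 with RNase I 0.1/0.025. Single clusters ran from 0.273, the RNase T1 1/1 cluster of MCM3 with 11 reads, to 1.25, an MCM2 cluster of 8 reads with RNase I 0.05/0.05.

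By the criterion of the study's methods, a target in a library was a gene with a cluster that exceeded both 10 CPM and 0.5 conversion events per read. The CPM used here is over cluster reads, and since the methods do not state the denominator, the calls need not be those of the study. With RNase I, 4 of the 7 members were called at 0.05/0.05, 5 at 0.1/0.025 and 6 at 0.05/0.025, beside 21.9, 21.3 and 22% of all protein-coding genes. With RNase T1, 1 was called at 1/1 and 5 at 0.25/0.25, beside 19.6 and 13.7%. Among genes with any cluster in the library the called shares were 50.1, 66.5, 72.6, 52.2 and 82%, and against these the members were near the background except at RNase T1 1/1, where 1 of 5 was called. PCNA was called in all 5 IGF2BP3 libraries, MCM3, MCM4 and MCM6 in all but RNase T1 1/1, MCM2 in 3, MCM7 in RNase I 0.05/0.025 alone and MCM5 in 0.

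The 10 CPM threshold stood at 23.6 reads with RNase I 0.05/0.05 and at 1.82 reads with RNase T1 0.25/0.25, so that a call asked for very different numbers of reads. Of the 25 member clusters with RNase I 0.05/0.05, 4 exceeded it, whereas all 9 with RNase T1 0.25/0.25 did. The single cluster that made MCM2 a target with RNase T1 0.25/0.25 had 5 reads. In RNase T1 1/1, MCM6 missed the call by its conversions, with clusters of 12.1 and 10.4 CPM at 0.429 and 0.500 events per read, and MCM3 by both criteria, with 9.51 CPM at 0.273. MCM5 came nearest with RNase I 0.1/0.025, where a cluster of 12.4 CPM had 0.400 events per read. MCM7 missed the call with RNase I 0.1/0.025 by its reads, with a cluster of 9.96 CPM at 0.875 events per read.

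**Figure D4:**
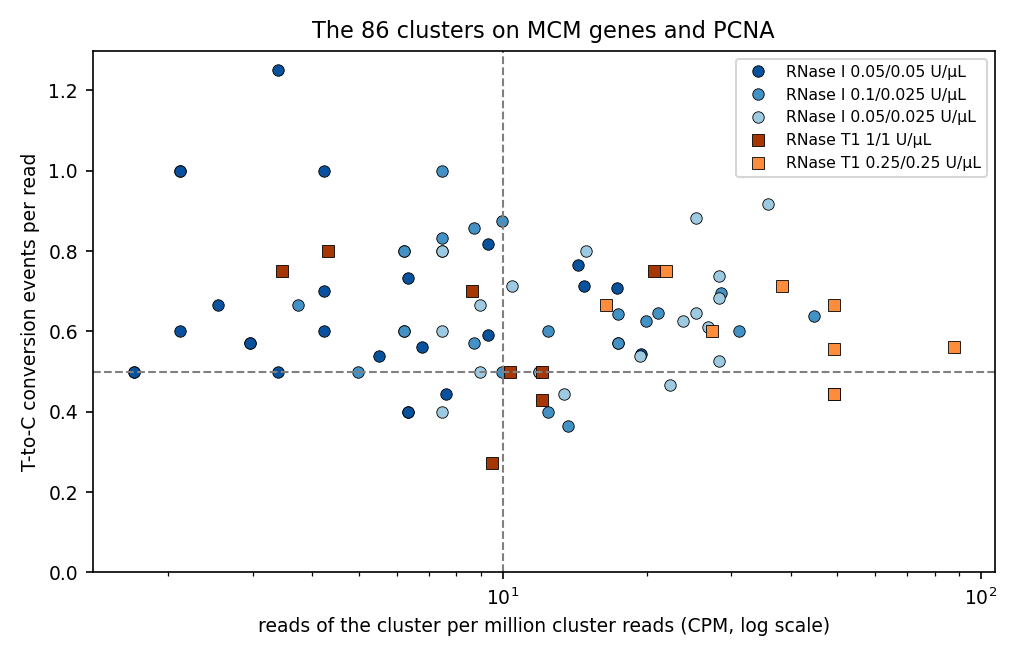
The 86 member clusters by CPM (log scale) and T-to-C conversion events per read, with dashed lines at 10 CPM and 0.5 events per read and circles for RNase I and squares for RNase T1. All 9 squares of RNase T1 0.25/0.25 lie right of 10 CPM, and 4 of the 25 points of RNase I 0.05/0.05 do.

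The RNase T1 clusters on the members were shorter, with a median of 32 nt and a range of 19 to 92 nt, than those of RNase I, with a median of 58 nt and a range of 19 to 140 nt. All 17 RNase T1 clusters ended in G, and 15 of the 69 RNase I clusters did. Over all clusters 94.7% ended in G with RNase T1 1/1 and 91.7% with 0.25/0.25, and 11.8 to 13% with RNase I. On the same gene, 16 of the 17 RNase T1 clusters (94.1%) lay over one from RNase I, whereas 28 of the 69 from RNase I (40.6%) were met by one from RNase T1. The exception was an MCM4 cluster of 5 reads in the coding sequence with RNase T1 1/1. The shares of overlap over all clusters are not given here, so that those of the members cannot be read as particular to them. The members also had unequal numbers of clusters with each enzyme, 17 and 69.

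Merged over the libraries, the 86 clusters made 29 sites. Of these, 15 had clusters of 1 library only, 4 of 2, 5 of 3, 1 of 4 and 4 of all 5. The 5 sites of 4 or 5 libraries, 1 each in MCM2, MCM3, MCM4, MCM6 and PCNA, held 669 of the 1056 reads, or 63.4%. All 5 were in 3′UTRs, and of the 12 coding sites 10 had clusters of 1 library, 1 in MCM4 of 2 and 1 in MCM7 of 3. The 10 coding sites of 1 library had 3 to 15 reads each. How sites and their reads divide in this way over all genes is not given here, so that these counts cannot be read as particular to the members.

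In windows of 30 nt around the position of the strongest signal of each cluster, the same 4 tetramers were counted on the RNA strand. A window with several of them was counted once among those that held at least 1. With RNase I, 33 of 69 member windows (47.8%) held at least 1 of the 4, and 42.5% of the windows of all clusters did. With RNase T1, 8 of 17 (47.1%) did, and 53.0% of all windows. CATT was in 17.4% of the RNase I windows of the members and 15.4% of all, and in 17.6 and 23.6% with RNase T1. CAGT was in 17.4 against 14.5% with RNase I and in 17.6 against 13.9% with RNase T1. The members thus stood close to all clusters with RNase I, and both of these RNase T1 shares rest on 3 windows.

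RNase I and RNase T1 were compared within each way of gel extraction, as ratios of CPM between 2 libraries with exact Clopper-Pearson intervals. These compare the libraries and not the enzymes. Between the electroeluted libraries, RNase I 0.05/0.05 over RNase T1 1/1, the ratio was 1.99 (1.58 to 2.52) for the summed CPM of the 7 members. It was 6.0 (2.20 to 22.9) for MCM7, 2.81 (1.47 to 5.90) for MCM3, 1.80 (1.00 to 3.42) for MCM4, 1.56 (0.996 to 2.53) for MCM6 and 1.04 (0.702 to 1.58) for PCNA. Without PCNA the summed ratio was 2.62. MCM2 and MCM5 had no cluster with RNase T1 1/1 and have no ratio. Counting these 2 as higher with RNase I, 4 of the 7 members were over 2-fold higher and 0 were over 2-fold lower, beside 25.2 and 15.6% of the 7342 genes with 20 or more reads in both libraries together. Among genes with a cluster in each library, 2 of 5 members were higher and 0 lower, beside 19.1 and 16.5%.

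Between the libraries from crushed gel, RNase I 0.05/0.025 over RNase T1 0.25/0.25, the summed ratio was 0.962 (0.736 to 1.27). MCM6 was lower with RNase I, at 0.457 (0.272 to 0.782), and PCNA stood at 0.527 (0.280 to 1.03). MCM2 stood at 1.74 (0.673 to 5.72), MCM3 at 1.56 (0.841 to 3.17) and MCM4 at 1.19 (0.645 to 2.38), with intervals that hold 1. Of the 5 members with 20 or more reads in both libraries together, 1 (MCM6) was over 2-fold lower and 0 were over 2-fold higher, beside 7.54 and 36.8% of 3938 genes, or 9.76 and 18% of those with a cluster in each library. In both pairs MCM3 and MCM4 had higher ratios than PCNA and MCM6, with intervals that overlapped in part.

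Within RNase I, the library at 0.05/0.05 had 0.431 (0.367 to 0.507) times the summed CPM of that at 0.05/0.025. MCM2 stood at 0.204 (0.114 to 0.360), MCM3 at 0.259 (0.181 to 0.370) and MCM4 at 0.274 (0.186 to 0.404), and MCM6 was lower as well, at 0.561 (0.383 to 0.834). The intervals of PCNA at 0.742 (0.485 to 1.16), MCM5 at 0.767 (0.360 to 1.77) and MCM7 at 1.39 (0.696 to 3.08) hold 1. Thus 3 of 7 members were over 2-fold lower, beside 4.58% of 6926 genes, or 5.38% of those with a cluster in each library. On the other side 0 of 7 were over 2-fold higher, beside 33.9%, or 21.1% with a cluster in each. The read numbers of MCM2, MCM3 and MCM4 in the 2 libraries were alike, 23 against 32, 63 against 69 and 55 against 57, while the cluster reads of the whole library differed as given above.

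Within RNase T1, the library at 1/1 had 0.209 (0.152 to 0.288) times the summed CPM of that at 0.25/0.25. All 4 members with 20 or more reads in both together were over 2-fold lower, MCM3 at 0.145 (0.0578 to 0.358), MCM6 at 0.164 (0.0910 to 0.296), MCM4 at 0.182 (0.0808 to 0.415) and PCNA at 0.374 (0.204 to 0.719). The share of all 5344 genes was 9.11%, and it was 15.2% of those with a cluster in each. None of the 4 was over 2-fold higher, beside 53.4 and 22.4%. In both enzymes MCM3 and MCM4 had lower ratios than PCNA, with intervals that overlapped for RNase T1 only. These 4 libraries are those of the comparison of the enzymes, so that the ratios of both comparisons are not independent.

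The 2 RNase I libraries from crushed gel differed only in the in-lysate concentration. The library at 0.1/0.025 had 0.861 (0.721 to 1.03) times the summed CPM of that at 0.05/0.025, and 0 of 7 members were past 2-fold in either direction, beside 9.87% of 4983 genes higher and 5.5% lower, or 8.93 and 5.31% with a cluster in each. MCM6, at 0.576 (0.346 to 0.947), was the only member whose interval did not hold 1. PCNA stood at 1.40 (0.881 to 2.26) and MCM3 at 0.762 (0.533 to 1.09).

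**Figure D5:**
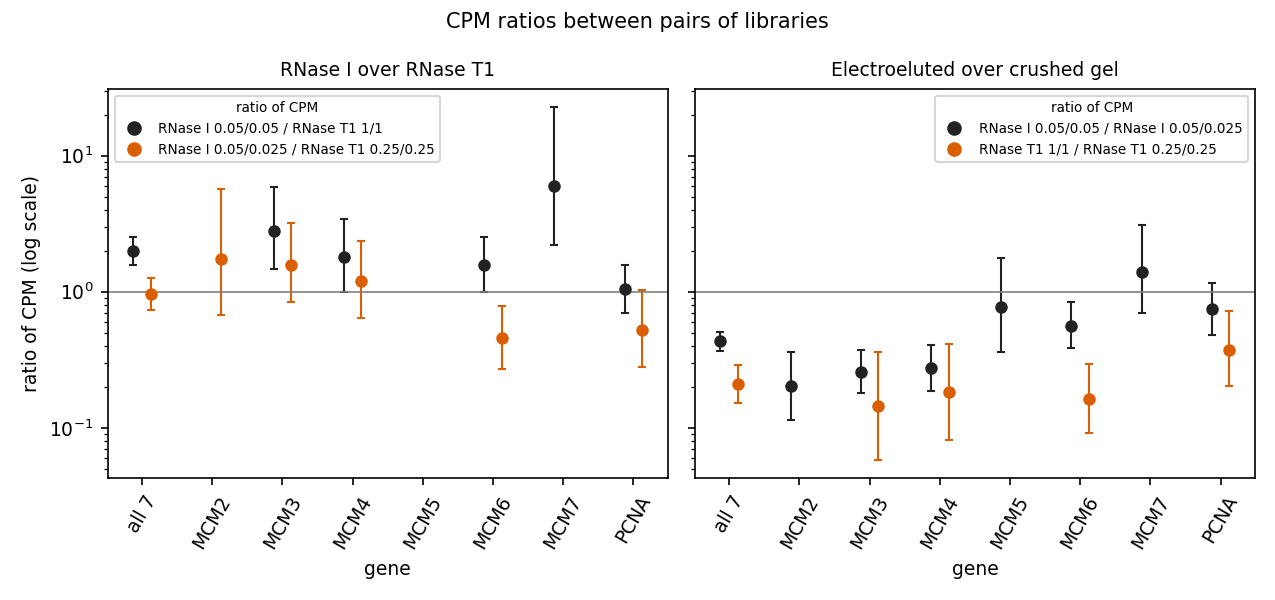
Ratios of CPM between pairs of libraries (log scale) for the 7 members together and for each, with exact Clopper-Pearson 95% intervals. Left, RNase I over RNase T1 in the electroeluted and crushed-gel pairs; right, electroeluted over crushed gel within each enzyme, where the ratio of the 7 together is 0.431 for RNase I and 0.209 for RNase T1.

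The gene nearest to each member in log2(CPM + 1) over the 5 IGF2BP3 libraries was sought among the protein-coding genes with clusters in all 5. MCM3 and MCM4 were nearest to each other, at a distance of 0.55. The nearest gene to PCNA was TBCA, a tubulin-folding cofactor, at 0.44, and that to MCM6 was TRIR, at 0.81. MCM2, MCM7 and MCM5 lacked clusters in 1 or 2 libraries, so that a gene with clusters in all 5 had to be distant from them and the distance restates the missing clusters. Their nearest genes were RHNO1, HYLS1 and PGAM4, respectively. PGAM4 is a near-identical copy of PGAM1, and its reads are uncertain.

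Of 52 further genes of DNA replication, 28, 35 and 28 had clusters with RNase I 0.05/0.05, 0.1/0.025 and 0.05/0.025, and 29 and 17 with RNase T1 1/1 and 0.25/0.25. In the same order these were 53.8, 67.3, 53.8, 55.8 and 32.7% of the list, beside 43.7, 32, 30.3, 37.6 and 16.7% of all protein-coding genes. Called as targets were 12, 21, 20, 6 and 13 of them, or 23.1, 40.4, 38.5, 11.5 and 25.0%, where the called shares of all protein-coding genes were 21.9, 21.3, 22, 19.6 and 13.7%. Among genes of the list with a cluster, 12 of 28, 21 of 35, 20 of 28, 6 of 29 and 13 of 17 were called. Of all protein-coding genes with a cluster, 50.1, 66.5, 72.6, 52.2 and 82% were called, and the list was below this in every library. The lowest count was with RNase T1 1/1, as for the members. In all 5 libraries, 5 were called: POLE3, a histone-fold subunit of polymerase epsilon, MCMBP, which binds MCM proteins, RFC3 of the clamp loader that places PCNA on DNA, DBF4, the activator of the CDC7 kinase, and ORC4 of the origin recognition complex. The share of all protein-coding genes called in all 5 libraries is not given here, so that this count has no background beside it.

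The highest mean CPM over the 5 libraries were those of POLE3 (515), RRM2 (423), which supplies deoxynucleotides, MCMBP (343), RFC3 (140) and RPA1 (137), which binds single-stranded DNA. Without RNase T1 0.25/0.25 the mean of RRM2 was 265 CPM, below that of MCMBP (323), and GINS1 (115), of the helicase cofactor GINS, took the place of RFC3 (97.8) among the first 5. MCMBP had 239, 428, 371, 252 and 422 CPM in the order of libraries used above, and all 5 values exceeded those of every MCM gene. RRM2 varied more, with 70.7, 454, 437, 97.7 and 1058 CPM, and like the summed CPM of the members it was lowest in the electroeluted libraries. No cluster was called in any library for 14 of the 52, which were CDC45, ORC1, ATAD5, TIMELESS, TIPIN, RFC2, PRIM1, POLA2, LIG1, CHTF18, POLE2, POLD1, POLD4 and RPA3. That was 26.9% of the list, a smaller share than the 53.3% of all protein-coding genes with no cluster. The replication list therefore ran from genes with no cluster to genes far above the MCM genes, and per kilobase POLE3 (235 CPM) stood above PCNA (41.7), while MCM8 (0.876) and MCM9 (0.858), relatives of the helicase subunits, stood below MCM5 (2.24).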

How the data were processed

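IR-PAR-CLIP clusters of IGF2BP3 in HCT116 were analysed from 5 libraries, with 1 IgG library, grouped by their titles and with no replicates. The authors processed the reads with bcl2fastq 2.20.0.422, UMI-tools 1.1.1 (deduplication by unique molecular identifiers), Trimmomatic 0.30 and Bowtie 0.12.7 on GRCh38.p13 and PARalyzer was run on each library. For every cluster the authors deposited raw counts of reads and of conversion events. Only called clusters are listed, so that a gene without one has no measured upper limit.

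Overlaps, CPM, shares and ratios were computed with bedtools 2.31.1, scipy 1.17.1, pandas 2.3.3 and numpy 2.4.6 under Python 3.11.15, and plotted with matplotlib 3.10.9. Genes, canonical transcripts and features came from GENCODE release 44, and clusters over several features were assigned to the 3′UTR before the coding sequence. All 86 member cluster sequences were identical to hg38. With 1 library per condition no test was run. Wilson, exact Poisson and Clopper-Pearson 95% intervals cover counting error only, and depth was taken from cluster reads. The scripts were tested on simulated clusters and simulated read counts with known answers.

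All 7 members were named. Of the replication list, the 5 genes with the highest mean CPM, those with no cluster and, chosen after their values were seen, those called in all libraries, MCM8 and MCM9 were named, and for each member its nearest gene. The members and lists were chosen with earlier results of these data known. Alternatives changed the conversion and read criteria, the gene assignment, the feature order and transcripts, the clusters used and the CPM denominator. The deposited mode score was not used.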

Additional observations from a re-analysis of the deposited data

Results flagged for a closer look

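The ratio of RNase I to RNase T1 on the members differed between the electroeluted pair of libraries (RNase I 0.05/0.05 over RNase T1 1/1) and the pair from crushed gel (RNase I 0.05/0.025 over RNase T1 0.25/0.25). For the 7 members together it was 1.99 and 0.962, for MCM6 1.56 and 0.457, and for PCNA 1.04 and 0.527, above 1 in the first pair and below 1 in the second. The intervals of the 7 together in the second pair, of MCM6 in the first and of PCNA in both hold 1. With 1 library per condition the difference between the pairs was not tested, and gel extraction, RNase concentration and depth in cluster reads cannot be told apart.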

How the results depend on the processing

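Of the values recomputed under the alternatives, 51 stayed within their counting interval or within 1.5 times the count, and 17 did not. With more than 0.75 events per read, the members called were 1 with RNase I 0.05/0.05, 0 with 0.1/0.025, 3 with 0.05/0.025 and 0 at both RNase T1 concentrations. With more than 0.25, 2 were called with RNase T1 1/1. With a minimum of 20 reads and no CPM criterion, 3 were called with RNase I 0.1/0.025, 1 with 0.05/0.025 and 0 with RNase T1 0.25/0.25. The shares of all protein-coding genes called under these changed criteria are not given here. The changes in the counts therefore cannot be read as particular to the members. The coding share over all transcripts became 19.4% with RNase I 0.05/0.05 and 6.37% with 0.05/0.025 when the coding sequence was placed before the 3′UTR, and 2.39% with 0.05/0.025 on canonical transcripts. Over reads on protein-coding exons the summed CPM was 190, 381 and 449 with RNase I 0.05/0.05, 0.1/0.025 and 0.05/0.025. Without PCNA, an alternative chosen after seeing the data, the electroeluted ratio was 2.62. Without RNase T1 0.25/0.25, also chosen after seeing the data, the mean CPM of MCM6 was 39.1 in place of 58.7. Conversion events per read moved under no alternative by more than the counting interval. Leaving out clusters on another gene could not change them, since 0 member clusters overlapped an exon of another gene. Asking for more of a cluster on exons could not change the calls or the summed CPM. Only 1 member cluster was not wholly within exons, and most of its length lay on them. The values of both of these alternatives are among the 51 that stayed. No paired analysis was possible because each condition has 1 library. Depth limits all values: single member clusters held 3 to 46 reads.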
